A study of Mus musculus with 4 samples.

Results

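The genes described are 10 meiotic cyclin-dependent kinase (CDK) genes, cyclin genes and genes for their activators and opposing kinase, of 21883 protein-coding genes: Cdk1, Cdk2, Ccna1, Ccna2, Ccnb1, Ccnb2, Ccne1, Hspa2, Cdc25c and Wee1. They were chosen by name, with earlier results of these data known, and all 10 were found in the RefSeq gene table. Every peak interval inside a gene or within 10 kb of either of its ends was taken. Open chromatin had been profiled with ATAC-seq (Tn5 transposase cuts accessible DNA and tags it) in pachytene spermatocytes from mouse testis, 2 libraries labelled Znhit1_KO and 2 labelled CTRL, all with the tag P35. ZNHIT1 is a subunit of the SRCAP complex, which deposits H2A.Z, a variant of histone H2A, in nucleosomes, and the study asked how it affects accessibility. The sources used here do not give the strain, the allele or the driver of the deletion. The values analysed are 2 lists of intervals, recorded for replicate 1 of the knockout and replicate 1 of the control, giving positions and no heights. As each genotype has 1 list, differences lack a replicate check, no error can be attached to a width and no test was run. Per the labels, each library exceeded 30000000 reads, and the depth behind each list is unknown. An interval that is missing may lie below the caller's threshold, and in bulk nuclei fewer open cells and less opening per cell cannot be told apart.

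CDK1 bound to a B-type cyclin is the kinase that drives entry into the meiotic divisions. Its activity is held back by the inhibitory kinase WEE1 and released by the phosphatase CDC25C, and in spermatocytes the chaperone HSPA2 is needed for CDK1 to assemble with cyclin B1. CDK2 acts earlier, at telomeres and crossover sites of prophase chromosomes. Cyclin A1 is a germ-line cyclin required for the first meiotic division in males, cyclin A2 is its mitotic counterpart, and E-type cyclins are partners of CDK2. Promoters of G2 and M phase genes often carry CCAAT boxes, bound by NF-Y, and a CHR element, bound by the DREAM and MuvB complexes.

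All 10 genes had a peak interval in the knockout list and in the control list, against 46.1% of protein-coding genes; 13.9% had one with the knockout only and 5.85% with the control only. At each gene the 2 lists had overlapping intervals at the start site or, where no start site was given, within 1 kb of a gene end. Of 7 start sites in the RefSeq promoter table all 7 lay inside an interval in both lists, against 24.8% of the 21262 start sites of protein-coding genes. Ccna1 and Hspa2 show why the start site was used. The Ccna1 start site lies 2579 bp inside the annotated gene, and no interval of either list lay within 1 kb of an annotated end of Ccna1. The Hspa2 start site lies 558 bp inside. The gene lengths had a median of 10837 bp, against 17170 bp for all protein-coding genes. The maps of the 10 loci show this site in both lists at every gene. Further intervals lay elsewhere, more of them in the knockout list, which held 19 intervals in all, against 14 in the control list.

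**Figure D1:**
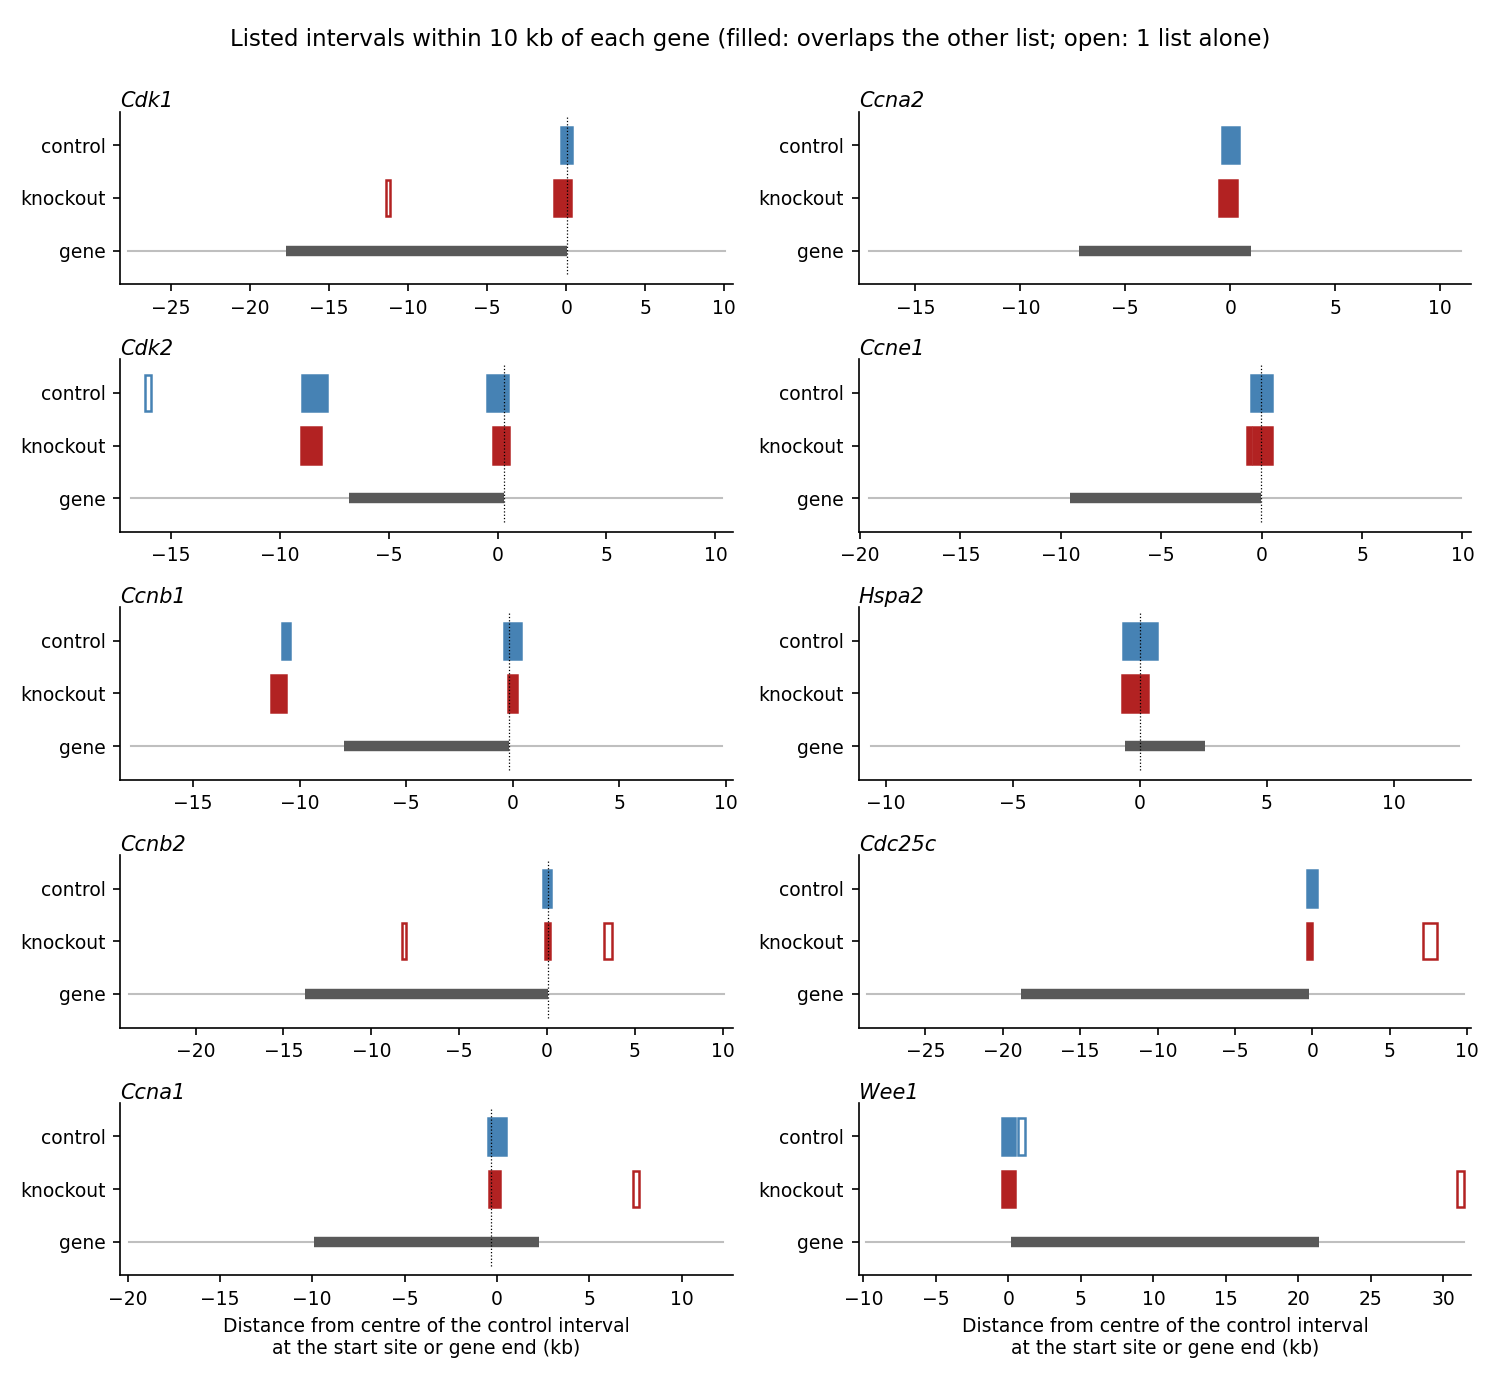
Each panel is 1 gene (grey bar) with 10 kb to each side, drawn as distance in kb from the centre of the control interval at its start site or gene end; boxes are intervals of the control list (blue) and the knockout list (red), filled where they overlap the other list and open where they do not, and the dotted line is the start site where the promoter table gives one. All 10 genes have a filled box in both rows, 6 knockout intervals and 2 control intervals are open, and the 2 adjoining knockout intervals at Ccne1 appear as 1 block.

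Promoter sequences follow for the 3 genes for the CDK1 and cyclin B kinase and for the 2 genes known best for male meiosis. In both lists the start site interval covered all 250 bases before the start site at Cdk1, Ccnb1, Ccna1 and Hspa2. At Ccnb2 it covered 98 of them in the knockout and 173 in the control. Each of these intervals also ran past the start site into the gene, outside the sequence given. The 250 bases before the start site are given 5′ to 3′ on the gene's strand (RefSeq, GRCm38.p6), with capitals marking CCAAT and TTTGAA on either strand (ATTGG and TTCAAA where the match is on the opposite strand).
Cdk1: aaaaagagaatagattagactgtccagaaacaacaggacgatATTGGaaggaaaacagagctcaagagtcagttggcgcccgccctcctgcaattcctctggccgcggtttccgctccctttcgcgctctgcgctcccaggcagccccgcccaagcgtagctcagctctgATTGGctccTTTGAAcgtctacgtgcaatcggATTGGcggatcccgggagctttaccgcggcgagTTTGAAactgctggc
Ccnb1: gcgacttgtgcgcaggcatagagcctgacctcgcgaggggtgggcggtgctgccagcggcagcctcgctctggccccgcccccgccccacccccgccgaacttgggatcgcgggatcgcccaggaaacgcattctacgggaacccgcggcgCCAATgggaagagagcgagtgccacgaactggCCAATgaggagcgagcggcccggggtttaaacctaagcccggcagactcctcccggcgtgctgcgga
Ccnb2: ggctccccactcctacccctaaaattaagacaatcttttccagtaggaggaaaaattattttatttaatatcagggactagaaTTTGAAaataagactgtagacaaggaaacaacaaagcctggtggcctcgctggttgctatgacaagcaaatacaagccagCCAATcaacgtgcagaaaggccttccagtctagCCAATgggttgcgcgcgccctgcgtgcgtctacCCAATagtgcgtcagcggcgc
Ccna1: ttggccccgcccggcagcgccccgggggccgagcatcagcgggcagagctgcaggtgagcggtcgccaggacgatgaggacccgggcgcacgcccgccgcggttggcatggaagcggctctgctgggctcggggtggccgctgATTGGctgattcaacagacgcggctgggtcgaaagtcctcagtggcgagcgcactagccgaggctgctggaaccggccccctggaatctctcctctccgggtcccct
Hspa2: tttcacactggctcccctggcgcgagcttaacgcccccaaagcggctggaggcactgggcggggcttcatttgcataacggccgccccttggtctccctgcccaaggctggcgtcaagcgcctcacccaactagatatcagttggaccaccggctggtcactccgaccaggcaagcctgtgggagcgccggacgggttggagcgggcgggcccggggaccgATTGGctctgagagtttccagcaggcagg
These windows are chr10:69352913-69353162 (Cdk1, minus strand), chr13:100786487-100786736 (Ccnb1, minus), chr9:70421555-70421804 (Ccnb2, minus), chr3:55055056-55055305 (Ccna1, minus) and chr12:76404120-76404369 (Hspa2, plus). CCAAT was present in 6 of the 7 promoters, with 11 matches in all, against 35.4% of the promoters of protein-coding genes and 42% of those covered in both lists. Ccnb2 and Cdk1 had 3 matches each, Ccnb1 had 2, and Ccne1 had none. TTTGAA, a form of the CHR element, was present in Ccnb2 and Cdk1 alone, against 14.5% of all promoters and 8.37% of those covered in both lists. Other forms of the CHR element were not searched, so a promoter without TTTGAA may hold another form. The MYB core AACNG was present in 5 of 7, against 73.1% of all and 72.1% of covered promoters, the GC box GGGCGG in 6 of 7, against 42.6% of all and 69.3% of covered promoters, and the CRE core TGACG in 3 of 7 (Ccnb2, Cdk2 and Hspa2), against 20.2% of all and 35.3% of covered promoters. GCGGGAA, an E2F-type sequence, was present in Cdk2 alone, against 4.96% of all and 8.92% of covered promoters, and the heat shock core GAANNTTC in none, against 6.17% and 4.57%. Both strands were searched, the same bases could count for 2 motifs (in Cdk1 one TTTGAA shares a base with an AACNG), and a match describes letters and not binding. The GC content of the 7 promoters ranged from 47.6% in Ccnb2 to 76% in Ccne1, with a median of 66%, against 62.8% for promoters covered in both lists and 55.6% for all.

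Cdk1, the catalytic subunit of the division kinase, had the longer interval in the knockout. The knockout interval at its start site was 1089 bp wide (chr10:69352104-69353192) and listed 3 times, and the control interval was 670 bp wide (chr10:69352542-69353211) and listed 2 times. An interval can stand on several lines of a list. MACS2 can write 1 line per summit, and whether it did so here is unknown. The extra length lay in the gene: the knockout interval ran from 280 bp upstream to 808 bp downstream of the start site, and the control interval from 299 bp upstream to 370 bp downstream. All 3 CCAAT and both TTTGAA matches lay inside both intervals. The knockout list held another interval of 267 bp, 11193 bp downstream of the start site inside the gene (chr10:69341453-69341719), which overlapped none in the control.

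Cdk2, which encodes the prophase kinase, differed in the other direction. Its start site interval was 715 bp in the knockout (chr10:128704557-128705271, listed 2 times), against 966 bp for the control (chr10:128704275-128705240, listed 3 times). The knockout interval reached 494 bp downstream and the control interval 776 bp, whereas upstream they reached 220 bp and 189 bp. The annotated span of Pmel, a pigment cell gene, covers Cdk2. A second pair, of 922 bp (knockout) and 1110 bp (control), lay over the ends of Rab5b and Pmel beyond the far end of Cdk2, and the control list alone held an interval of 287 bp inside Rab5b (chr10:128688568-128688854).

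The B-type cyclin genes, which encode the CDK1 partners, had shorter start site intervals in the knockout list than in the control list. At Ccnb1 the interval was 385 bp wide in the knockout (chr13:100786462-100786846, listed once) and 769 bp in the control (chr13:100786273-100787041, listed 3 times), and the knockout interval lay wholly inside the control interval. It ended 24 bp downstream of the start site, against 213 bp in the control, and began 360 bp upstream, against 555 bp. Its 2 CCAAT boxes, at positions -99 to -95 and -67 to -63 from the start site, lay inside both.

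At Ccnb2 the interval was 295 bp in the knockout (chr9:70421358-70421652, listed once) and 492 bp in the control (chr9:70421236-70421727, listed 2 times), again nested. It spanned 98 bp upstream to 196 bp downstream in the knockout and 173 bp upstream to 318 bp downstream in the control. The 3 CCAAT boxes, which lie between positions -87 and -17, were inside both intervals. The TTTGAA at -167 to -162, upstream of all 3 CCAAT boxes, lay in the control interval but outside the knockout interval. It was the only match of those searched at the 7 promoters that lay in 1 interval and not in the other. Whether this match acts as a CHR element was not tested, and bases after the start site were not searched. Ccnb2 also had 2 intervals in the knockout alone, 254 bp inside the gene (chr9:70413206-70413459) and 458 bp upstream (chr9:70424735-70425192), the latter 232 bp from an end of Rnf111, a ubiquitin ligase gene.

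Beyond the far end of Ccnb1, a pair of intervals over an end of Cenph, a kinetochore gene, overlapped by 195 bp only. The intervals were 705 bp wide in the knockout (chr13:100775312-100776016) and 391 bp in the control (chr13:100775822-100776212), each listed once. The knockout interval was thus the longer one. The overlap covered 27.7% of the knockout interval and 49.9% of the control interval, and whether they mark 1 site was not tested.

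Of the A-type cyclin genes, the germ-line gene Ccna1 had the shorter interval in the knockout and Ccna2 had nearly equal ones. The Ccna1 interval was 566 bp in the knockout (chr3:55054943-55055508, listed 2 times) and 1006 bp in the control (chr3:55054867-55055872, listed 3 times), with the knockout interval nested in the control one. Its upstream reach was 453 bp against 817 bp, and its downstream reach 112 bp against 188 bp. The upstream part lies over the start coordinate of 4931419H13Rik, a long non-coding RNA gene that overlaps Ccna1, so the interval cannot be assigned to Ccna1 alone. An interval of 326 bp lay 5123 bp beyond the higher-coordinate end of the gene in the knockout alone (chr3:55062757-55063082).

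Ccna2 had 1 interval in each list, of 853 bp in the knockout (chr3:36571542-36572394, listed 2 times) and 827 bp in the control (chr3:36571642-36572468, listed 3 times). These lay inside the gene, 644 bp and 570 bp from its higher-coordinate end, which is 103 bp from Bbs7, a BBSome gene.

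Ccne1, which encodes a CDK2 partner, had an interval of 959 bp at its start site in the knockout (chr7:38107124-38108082) and one of 1055 bp in the control (chr7:38107018-38108072), each listed 2 times. A further knockout interval of 204 bp (chr7:38106821-38107024) overlapped the control interval by 7 bp. When intervals of a list separated by up to 200 bp were joined, the knockout interval became 1262 bp, longer than that of the control, so the order at Ccne1 depends on how the intervals were split.

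Hspa2, which encodes the chaperone for CDK1, had the widest control interval of the 10 genes. It was 1313 bp in the control (chr12:76403730-76405042), wider than 98.5% of the control list, and 1019 bp in the knockout (chr12:76403665-76404683), wider than 94.5% of the knockout list. Both were listed 4 times, the most among these genes at a start site or gene end. The knockout interval reached 705 bp upstream and 313 bp downstream, and the control interval 640 bp and 672 bp. An end of the long non-coding RNA gene 4930426I24Rik lies inside both intervals.

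Among the regulators of CDK1, the interval of Cdc25c, the activating phosphatase gene, was shorter in the knockout, and that of Wee1, the inhibitory kinase gene, was nearly the same in both lists. At the higher-coordinate end of Cdc25c the interval was 321 bp in the knockout (chr18:34751460-34751780) and 650 bp in the control (chr18:34751470-34752119), each listed once, and 311 bp of them overlapped. The knockout list also held an interval of 878 bp, listed 3 times, 7372 bp beyond that end (chr18:34758936-34759813), which lay in Fam53c, 105 bp from its end, and overlapped no control interval. It was the widest of the intervals near these genes that were in 1 list alone.

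At the lower-coordinate end of Wee1 the interval was 919 bp in the knockout (chr7:110121433-110122351) and 885 bp in the control (chr7:110121434-110122318), each listed 3 times. The control list held a second interval of 488 bp, listed 2 times, which began 458 bp inside the gene (chr7:110122517-110123004) and had no overlap in the knockout list. Joined across gaps of up to 200 bp, the control interval became 1571 bp, against 919 bp in the knockout, which turned the order at Wee1. An interval of 471 bp lay 9520 bp beyond the other end in the knockout alone (chr7:110152819-110153289).

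**Figure D2:**
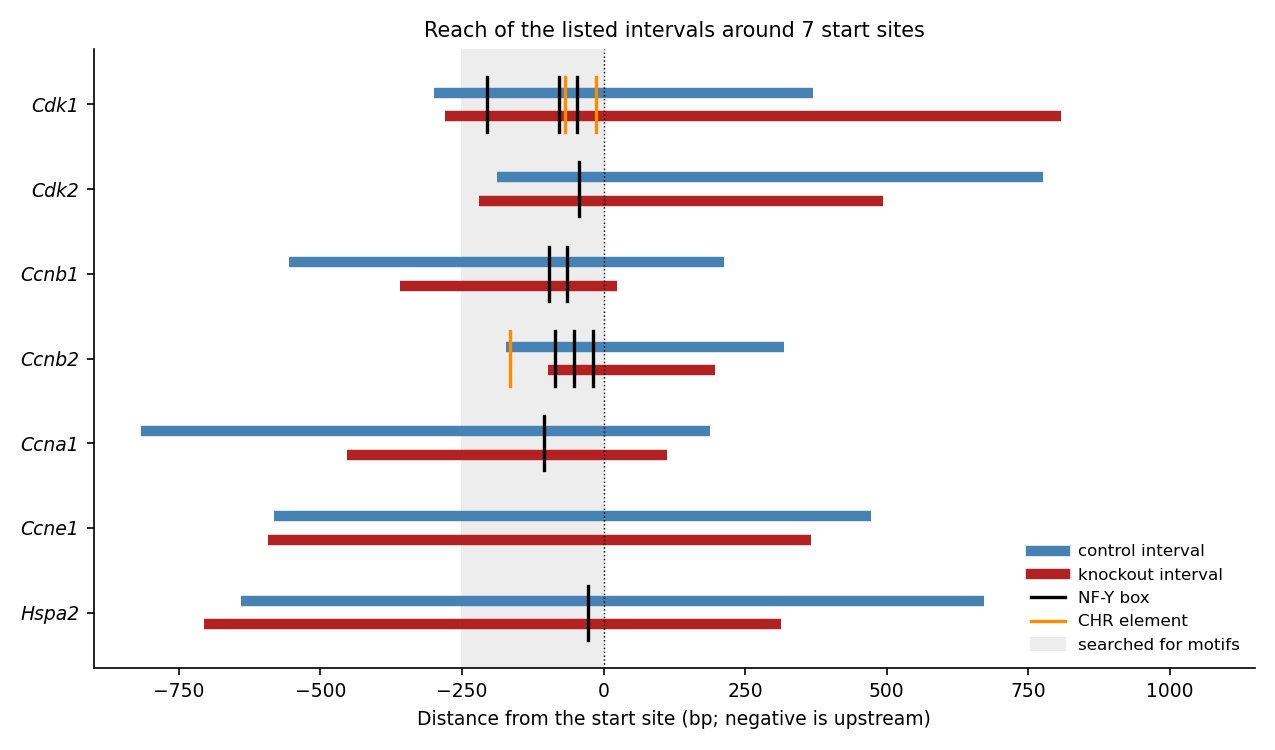
Bars give the listed interval around each of 7 start sites in the control list (blue) and the knockout list (red), in bp from the start site with upstream to the left; black and orange ticks are CCAAT (NF-Y box) and TTTGAA (CHR element) matches in the 250 bases searched (grey). The knockout bar ends nearer to the start site downstream at 6 of the 7, with Cdk1 the exception. The second knockout interval at Ccne1, which runs past the control edge, is not drawn. The TTTGAA tick of Ccnb2 lies outside the red bar.

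Over the 7 start sites, the knockout interval covering the site reached less far into the gene than the control interval at 6. The knockout interval reached farther at Cdk1, and the median difference was -122 bp. Upstream it reached less far at 4 of 7. Among 4977 start sites of protein-coding genes inside intervals that met 1 to 1, the knockout interval reached less far downstream at 46.1%, with a median difference of 10 bp, and less far upstream at 44.5%. At Ccne1 a second knockout interval ran from 466 to 669 bp downstream, beyond the control edge at 472 bp. The direction there depends on how the intervals were split. Leaving out Ccne1, whose control interval met 2 knockout intervals, the members had a shorter downstream reach at 5 of 6. This measure was chosen after the values were seen, and 7 sites in 1 list per genotype carry no test.

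**Figure D3:**
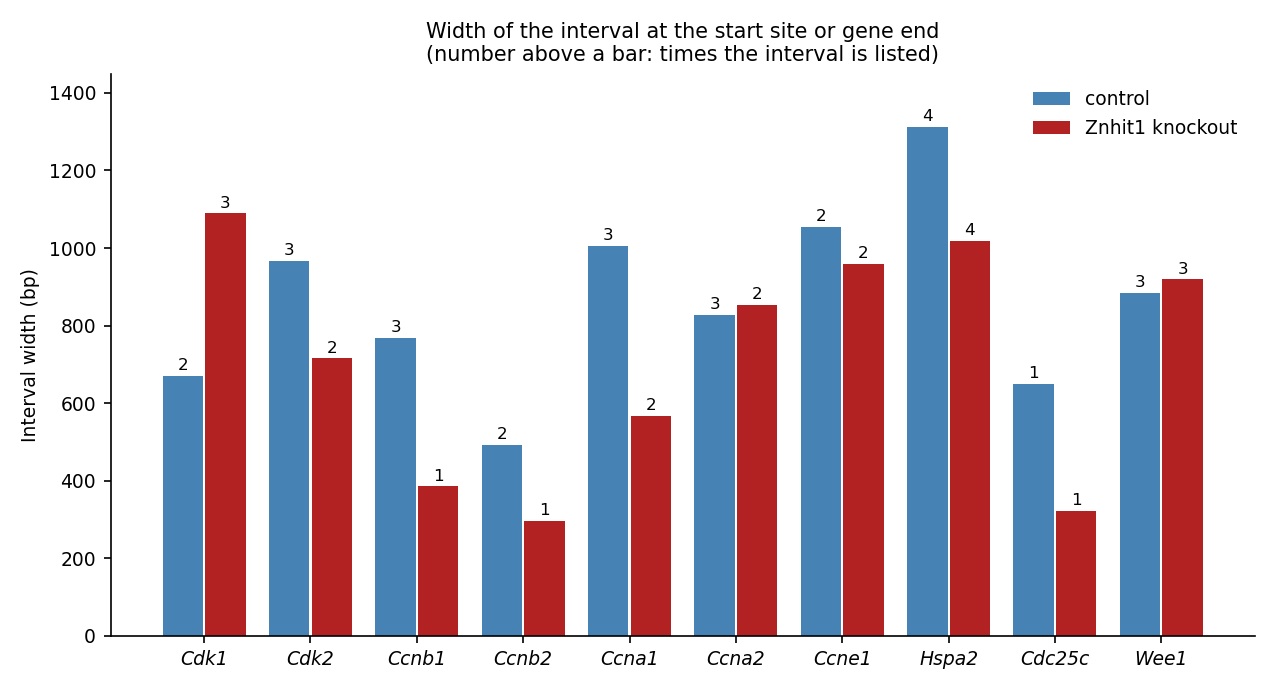
Bars give the width in bp of the interval at the start site or gene end of each gene in the control list (blue) and the knockout list (red), and the number above each bar is how many times that interval is listed. Ccnb1 and Cdc25c show the largest ratios of control to knockout (769 to 385 bp and 650 to 321 bp), and Cdk1 is the gene with a much longer knockout bar (1089 against 670 bp).

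At the 9 genes whose interval at the start site or gene end met 1 of the other list, the knockout interval was narrower at 6 and wider at 3. Among 4911 pairs within 1 kb of an end of a protein-coding gene, 46.9% were narrower. The Ccna1 pair is not among the 4911, as it lies farther than 1 kb from any such end. The log2 ratio of the widths, knockout over control, had a median of -0.43 at the 9 genes, against 0.03 over the 4911 pairs, whose quartiles were -0.28 and 0.38. It was narrower by 1.5-fold or more at 4 of 9 (Cdc25c, Ccnb1, Ccna1 and Ccnb2, with log2 ratios of -1.02, -0.998, -0.83 and -0.74), against 10.8% of the pairs, and wider by 1.5-fold or more at Cdk1 alone (0.70), against 15.7%. With intervals listed at least 2 times, 6 of these pairs were left, 3 narrower and 3 wider in the knockout, and 1 of them (Ccna1) was narrower by 1.5-fold or more, since the knockout intervals of Ccnb1, Ccnb2 and Cdc25c were listed once. Hspa2 (-0.37) and Cdk2 (-0.43) lay between, and Ccna2 (0.04) and Wee1 (0.05) were close to equal. The knockout interval was listed fewer times than the control one at 5 of the 9, against 32.4% of the pairs. With the pairs near Rab5b and Cenph added, 11 pairs had a median of -0.37. A width depends on the depth and the threshold of its list and is no measure of signal, and the part of either in these ratios was not tested.

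**Figure D4:**
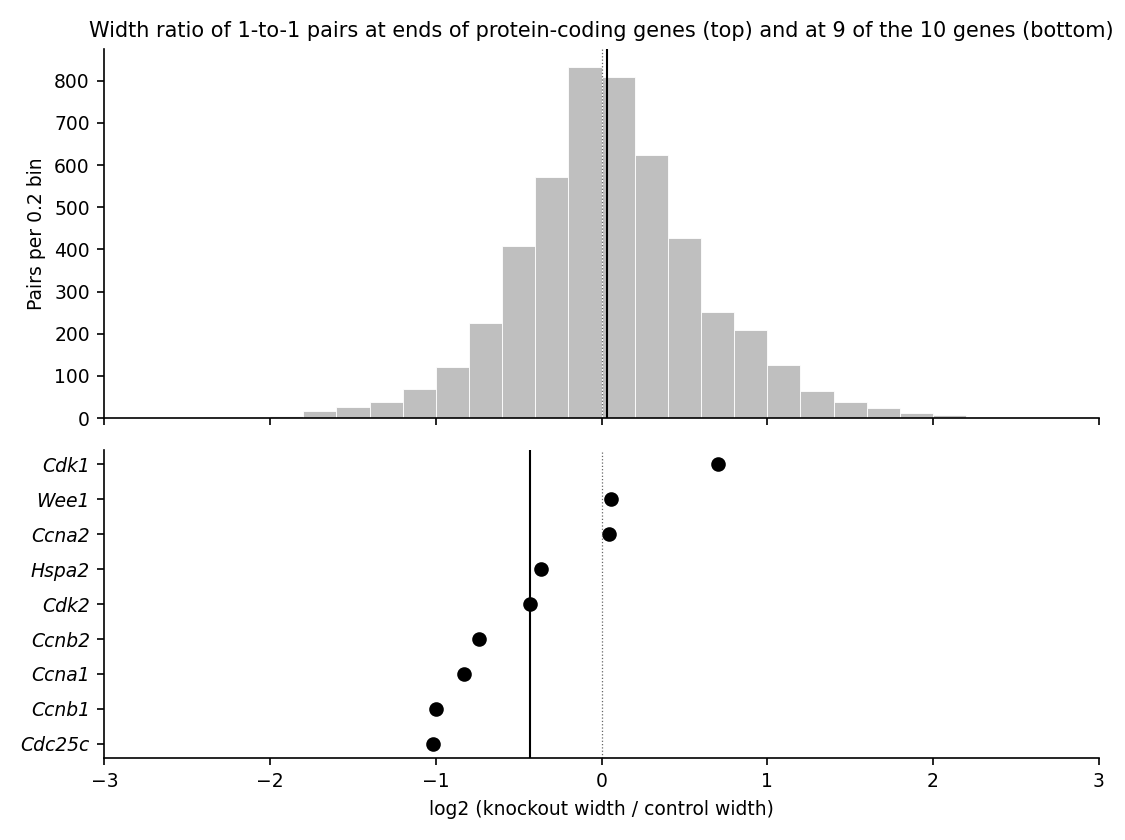
The top panel is the histogram of log2 knockout over control width for 4911 pairs at ends of protein-coding genes, and the bottom panel gives 9 of the 10 genes as points on the same axis, with a solid line at each median (0.03 and -0.43). From Cdc25c (-1.02) to Cdk1 (0.70), 6 of the 9 points lie left of 0 and all lie inside the range of the histogram.

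Counted over all intervals near the 10 genes, the knockout list held 19 and the control list 14. Of these, 13 in the knockout (68.4%) overlapped a control interval, against 39.2% of knockout intervals within 10 kb of any protein-coding gene, and 12 in the control (85.7%) overlapped a knockout interval, against 51.6%. Of the 13, 10 were the intervals at a start site or gene end described above. The 6 in the knockout alone lay near Cdk1, Ccna1, Ccnb2 (2 of them), Cdc25c and Wee1. Shared intervals had a median width of 715 bp (knockout) or 856 bp (control). Those in the knockout alone had a median of 392 bp, and 5 of the 6 were listed once. The knockout intervals at Ccnb1, Ccnb2 and Cdc25c that overlapped a control interval were also listed once, so when single listings were dropped 7 of the 10 genes kept a shared site at the start site or gene end, Ccnb1 and Ccnb2 had one in the control alone, and Cdc25c had none in either list.

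Of 43 other genes of the pathway, 34 (79.1%) had an interval within 10 kb in both lists, against 46.1% of protein-coding genes, and 3 in neither. Another 5 (11.6%) were found only with the knockout, close to the 13.9% over all genes, and 1 (Plk1) only with the control, against 5.85%. Among 16 other cyclins, CDKs and activators, 11 were in both lists, including Cdk7, the CDK-activating kinase, and Spdya, an activator of CDK2 at telomeres. Ccnd2, Ccnh, Mnat1 and Ccnb1ip1 were in the knockout alone, and Ccnb3, an X-linked meiotic cyclin gene, was in neither. Among 10 switch kinases and phosphatases 8 were in both, with Cdc25b in the knockout alone and the polo-like kinase gene Plk1 in the control alone. Of 7 CDK inhibitor genes 5 were in both and Cdkn1a and Cdkn1b in neither, and all 7 genes for the destruction of cyclins and WEE1 and all 3 genes of HSPA2 partners (Nasp, Eif4g3 and Bag6) were in both.

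Within 1 kb of a gene end, 25 of the 43 (58.1%) were in both lists, against 28.6% of protein-coding genes. Of the 43, 2 were in the knockout list alone, against 9.81% of protein-coding genes, and 2 in the control list alone, against 4.66%. Neither count exceeds the share over all genes. In the knockout alone, Ccnh, the cyclin of CDK7, had an interval of 585 bp, and Cdc25b, a phosphatase gene related to Cdc25c, had one of 176 bp. In the control alone, Cdc20, the activator of the anaphase-promoting complex, had one of 977 bp. Cntd1, a cyclin-like crossover gene, had one of 570 bp in the control alone that also lay near Coa3. Some intervals of genes in both lists also lay near a neighbouring gene, as at Spdya (Ndc80), Bora (Mzt1), Mastl (Yme1l1) and Cks1b (Shc1). Over 22 pairs at ends of 21 of the 43 genes the median log2 width ratio was -0.14, with 13 narrower in the knockout and 9 wider. Of the 22 pairs, 2 were narrower and 6 wider by 1.5-fold or more. Among the 4911 pairs at ends of protein-coding genes, 46.9% were narrower in the knockout, with a median log2 ratio of 0.03. In that set 10.8% were narrower and 15.7% wider by 1.5-fold or more. The difference between these genes and the 10 above was not tested.

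**Figure D5:**
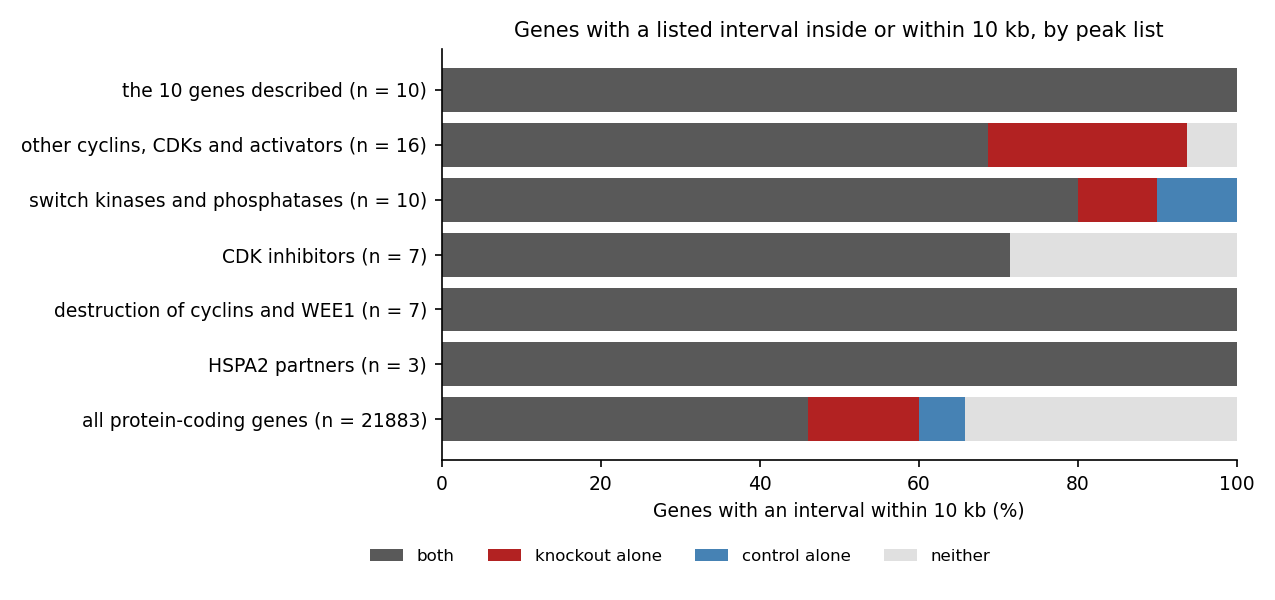
Stacked bars give the percentage of genes with an interval inside or within 10 kb in both lists (dark grey), the knockout list alone (red), the control list alone (blue) or neither (light grey), for the 10 genes described, the 5 pathway lists and all 21883 protein-coding genes. The 10 genes, the destruction genes and the HSPA2 partners are dark grey throughout, against 46.1% of all genes.

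The knockout list held 21004 separate intervals and the control list 15376, with median widths of 352 and 427 bp. Znhit1 had an interval near a gene end in both lists, which does not check the genotype labels, since the sources used here do not give the deleted part. All 8 markers of pachytene spermatocytes had an interval within 10 kb in both lists (46.1% of all genes), and 7 of the 8 within 1 kb of an end in both (28.6%), with H1f6 in the knockout alone. Of 19 markers of spermatogonia, spermatids, Sertoli, Leydig and immune cells, 4 had an interval within 10 kb in both lists, against 46.1% of genes. These were Zbtb16, Gfra1, Amh and Gata4. Another 5 had one only with the knockout, against 13.9% of genes, and 2 only with the control, against 5.85%. Within 1 kb of an end 0 of the 19 had an interval in both lists, against 28.6% of genes. Of the 19, 1 was in the knockout alone there (Uchl1), against 9.81%, and 1 in the control alone (Dmrt1), against 4.66%.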

How the data were processed

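The authors deposited 1 list of peak intervals for the first library of each genotype, with 3 columns (chromosome, start, end) and no header. Build mm10 and the tools MACS2 2.2.4, Picard 2.20.7, Bowtie2 2.3.4.3 and cutadapt 2.5 come from the submitters' processing notes, with no role or order. The sources used here do not give the peak threshold, duplicate filter, Tn5 shift or any pooling of replicates. The second library of each genotype was not analysed here.

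Repeated lines were counted once, leaving 21004 of 29656 lines in the knockout and 15376 of 24167 in the control. Positions were written 1-based. Genes and promoters came from RefSeq tables of GRCm38.p6, whose chromosomes are those of mm10. An interval was shared when 1 bp or more of it lay in an interval of the other list, and a pair was 1 to 1 when neither met another. Of the 10 genes 7 had a promoter entry, which gives strand and start site; Ccna2, Cdc25c and Wee1 had none. All 10 genes, all their intervals and pathway genes in 1 list alone at an end are named. The genes and lists were chosen with earlier results of these data known. Overlap, pairing, joining and gene windows were tested on simulated intervals, and 200 of 200 overlaps were recovered. Python 3.11.15, numpy 2.4.6, pandas 2.3.3 and matplotlib 3.10.9 were used. Alternatives were other windows, other overlap rules, joining of intervals and subsets of intervals.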

Additional observations from a re-analysis of the deposited data

How the results depend on the processing

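With 1 list per genotype no replicate could be left out. No paired analysis was possible because the result comes from no test and only the first library of each genotype has a list. Every one of the 10 genes kept an interval in both lists with windows of 1, 3 and 50 kb, with intervals of at least 300 bp, with equal numbers of widest intervals and with joined intervals. With intervals listed at least 2 times, 7 did, while 1 gene was then found only with the knockout and 2 only with the control, and at start sites or gene ends 2 were found only with the control. In that setting 8 knockout intervals were shared and 1 was not. The median log2 width ratio over all pairs within 10 kb of the 10 genes was then -0.20, with 5 narrower and 3 wider. Its counterpart in the main setting is -0.37 over 11 pairs. Pathway genes in that setting numbered 21 (both lists), 9 (knockout only) and 5 (control only). No share over all protein-coding genes is given for this or the other alternative settings. These counts and those of the 10 genes therefore have no background, and the shares of the main setting are no measure for them. With intervals of at least 300 bp, 1 of the 10 genes (Ccnb2, whose knockout interval was 295 bp) was in the control alone at its start site. Pathway genes in the control alone numbered 2 with equal numbers of widest intervals and with windows of 1 and 3 kb, and 0 with 50 kb, where 1 was in the knockout alone. Control intervals near the 10 genes that were not shared numbered 4 when 50% of both had to overlap, and 1 with joined intervals, with gaps of up to 500 bp counted or with a 1 kb window, where 2 knockout intervals were not shared. Joining turned the log2 width ratio of Wee1 to -0.77. Depth limits all of these, since a site under the threshold in 1 list is counted as absent.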

Other observations

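At 2 further genes of the pathway both lists had an interval near a gene end, but the intervals lay apart. These genes were chosen after their values were seen. Ccne2, which encodes the second E-type cyclin, had an interval of 1260 bp in the knockout (chr4:11190797-11192056, listed 4 times) and one of 262 bp in the control (chr4:11190298-11190559, listed once), which did not overlap. Cdkn2a, which encodes the tumour suppressors p16 and p19, had one of 477 bp in the knockout and one of 213 bp in the control, at opposite ends of the gene. The CDK inhibitor genes Cdkn2b, Cdkn2c and Cdkn1c had pairs that were wider in the knockout, with log2 ratios of 1.59, 0.86 and 0.72. The control intervals of these pairs were each listed once, as was the knockout interval at Cdkn1c. Of the 2 pairs at Cdkn2d, 1 was narrower (-1.30) and the other wider (0.24). No difference between these genes and the others was tested.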
